A study of Homo sapiens with 12 samples.

Results

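The integrated stress response and the amino acid response it controls were followed through 43 genes in the Hodgkin lymphoma cell line HDLM-2. The genes are a list of symbols that holds the transcription factors of the pathway, amino acid enzymes, transporters, feedback genes and secreted products, matched to probes through the platform's table. Of the 43, 42 had a probe on the Illumina HumanHT-12 V3 bead array and 33 of the 10529 genes tested were members. A probe counts as above background on an array when its detection fraction is over 0.95, and a gene was tested if that held for the 3 arrays of any group. Cells grown in serum- and glutamine-supplemented RPMI medium were left for 24 hours with 100 nM givinostat plus 5 µM sorafenib, with 100 nM givinostat, with 5 µM sorafenib, or as control. Givinostat inhibits histone deacetylases and sorafenib inhibits RAF and receptor tyrosine kinases. The labels name no vehicle for the control. Each group had 3 arrays, lettered A, B and C, and 12 arrays were read. The labels do not say whether these came from separate cultures, so p-values measure only the spread between arrays, which may be technical.

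In the integrated stress response, kinases that sense amino acid shortage, misfolded protein, haem shortage or viral RNA phosphorylate the initiation factor eIF2. General translation then slows while the mRNA of the transcription factor ATF4 is translated more. ATF4 pairs with C/EBP factors at C/EBP-ATF response elements and raises genes for amino acid synthesis, amino acid uptake and transfer RNA charging. ATF4 is controlled largely at translation, so its mRNA level is not a measure of its protein.

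Levels are given as log2 normalised intensity, which compares groups for 1 probe and not 1 gene with another. Changes are log2 differences with the standard error (SE) of a limma fit over all 12 arrays (n = 3 arrays per group). A gene is said to have risen or fallen when its limma p, adjusted by Benjamini-Hochberg over all 10529 genes, was under 0.05. Mean raw intensity was lowest on sorafenib array C (1033.8 units) and highest on control array B (1629.7), and sorafenib array C also deviated most from its group mean (root mean square 0.221 log2 units). Of 8 markers of Hodgkin Reed-Sternberg cells, TNFRSF8, FSCN1, IRF4, TRAF1, CCL17, CCL22 and FUT4 were above background on all 12 arrays and IL13 on 0. Probes of PAX5, CD3D, CD3E, COL1A2, DCN, LUM, KRT18 and KRT19, which mark B cells, T cells, fibroblasts and epithelium, were above background on 0 arrays. CD2, CDH1 and CSF1R, markers of T cells, epithelium and myeloid cells, were above background on all 12. MS4A1, CD79A, CD14, LYZ, FCGR3A, EPCAM and COL1A1 were above it on 1 to 10 arrays.

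Of the 10 members that were not tested, GPT2 had no probe in the platform's table. The serine synthesis gene PHGDH, the mitochondrial folate gene ALDH1L2, the glycine transporter gene SLC6A9, STC2 and CEBPD were above background on 0 arrays. CBS and FGF21 were above it on 1 array each. SESN2, which encodes a leucine sensor, was above background on 2 of 3 arrays of each drug group and 1 of 3 control arrays. NUPR1 was just outside as well, with 2 combination, 1 givinostat, 2 sorafenib and 1 control array. JDP2 was just inside, with 2 combination, 1 givinostat, 2 sorafenib and 3 control arrays, so it entered through its control arrays alone. EIF4EBP1 entered through its sorafenib and control arrays. The remaining 31 tested members were above background on all arrays of all 4 groups.

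The promoters are shown because several members carry the sequence that ATF4 and C/EBP factors are known to bind. RefSeq promoter windows of GRCh38.p14, from 250 bases before to 50 after the start site, were supplied for 33 of the 43 members. Only 1 window per gene was searched, the first listed for its symbol, and any other start site of a gene was not searched. The core of the C/EBP-ATF response element was searched as TGATGNAA on both strands. It was found in 9 of the 33 windows, a share of 27.3%, against 3.67% of 27305 windows over all genes. The list holds genes of the pathway that works through this element, so these shares are not an independent comparison. The full cyclic AMP response element TGACGTCA was in 1 of the 33, PPP1R15A, against 1.98% of all windows. The endoplasmic reticulum stress element, CCAAT and CCACG parted by 9 bases, was in 0 of the 33, against 0.0806% of all. A match is a description of the letters and not evidence of binding. Below, capitals mark the core. ASNS and ATF3 were chosen as members that rose with sorafenib, CHAC1 as one that rose with the combination, and MTHFD1L as one that fell with givinostat. Their windows are chr7:97872359-97872658 on the minus strand for ASNS, chr1:212565157-212565456 on the plus strand for ATF3, chr15:40953221-40953520 on the plus strand for CHAC1 and chr6:150866236-150866535 on the plus strand for MTHFD1L.
ASNS: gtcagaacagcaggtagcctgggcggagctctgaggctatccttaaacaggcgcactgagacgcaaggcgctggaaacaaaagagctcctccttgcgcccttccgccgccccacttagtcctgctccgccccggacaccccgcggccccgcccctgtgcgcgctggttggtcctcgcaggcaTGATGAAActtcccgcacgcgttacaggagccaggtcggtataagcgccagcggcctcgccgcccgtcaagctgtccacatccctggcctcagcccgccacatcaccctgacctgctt
ATF3: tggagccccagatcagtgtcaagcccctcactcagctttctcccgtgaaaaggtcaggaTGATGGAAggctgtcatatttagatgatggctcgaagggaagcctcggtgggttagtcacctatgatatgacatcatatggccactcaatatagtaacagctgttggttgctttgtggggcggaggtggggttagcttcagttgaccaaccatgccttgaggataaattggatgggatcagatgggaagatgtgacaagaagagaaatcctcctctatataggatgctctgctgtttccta
CHAC1: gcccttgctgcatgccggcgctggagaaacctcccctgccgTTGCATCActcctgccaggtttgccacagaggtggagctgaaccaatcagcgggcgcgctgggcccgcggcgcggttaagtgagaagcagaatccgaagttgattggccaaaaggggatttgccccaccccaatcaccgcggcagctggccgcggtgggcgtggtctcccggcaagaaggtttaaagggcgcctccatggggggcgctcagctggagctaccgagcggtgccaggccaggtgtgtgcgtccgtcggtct
MTHFD1L: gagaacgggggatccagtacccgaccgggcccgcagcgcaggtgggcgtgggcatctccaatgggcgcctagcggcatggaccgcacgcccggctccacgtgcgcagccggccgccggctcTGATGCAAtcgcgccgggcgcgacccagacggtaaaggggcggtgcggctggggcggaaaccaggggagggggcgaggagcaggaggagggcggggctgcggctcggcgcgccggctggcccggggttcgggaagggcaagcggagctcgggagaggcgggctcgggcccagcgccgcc

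Counted in bases from the start site, the core began at -68 in ASNS, -191 in ATF3 and -129 in MTHFD1L, all on the strand of the gene. In CHAC1 it began at -209, on the opposite strand. The other 5 windows with the core were those of BCAT1, SLC38A1, SLC7A1, SLC3A2 and FGF21. The 8 members with a core that were tested did not all behave alike, as the values below show.

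**Figure D1:**
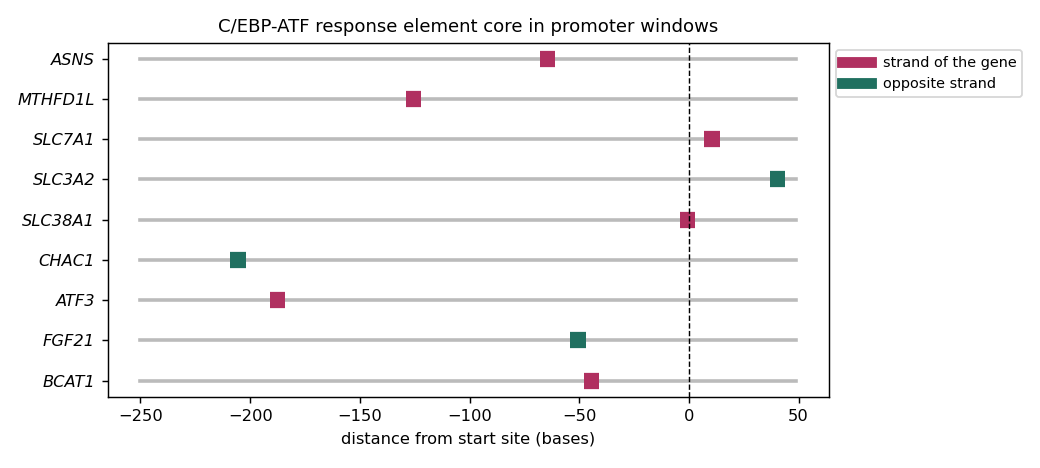
Position of the C/EBP-ATF response element core in the 9 member promoters that hold it, as distance from the start site in bases (grey line: the window searched; red: core on the strand of the gene; green: on the opposite strand). The core lay before the start site in ASNS, MTHFD1L, CHAC1, ATF3, FGF21 and BCAT1, across it in SLC38A1 and after it in SLC7A1 and SLC3A2.

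Among the 33 tested members, 26 differed among the 4 groups (moderated F test), beside 46.6% of all genes tested. In at least 1 of the 3 comparisons with control 23 of the 33 members changed, beside 48.2% of all genes. ASNS, CTH, CEBPG and VLDLR rose in each of the 3, 4 of 33 members beside 1.5% of all genes. The comparisons share their control arrays, so they are not independent of each other.

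**Figure D2:**
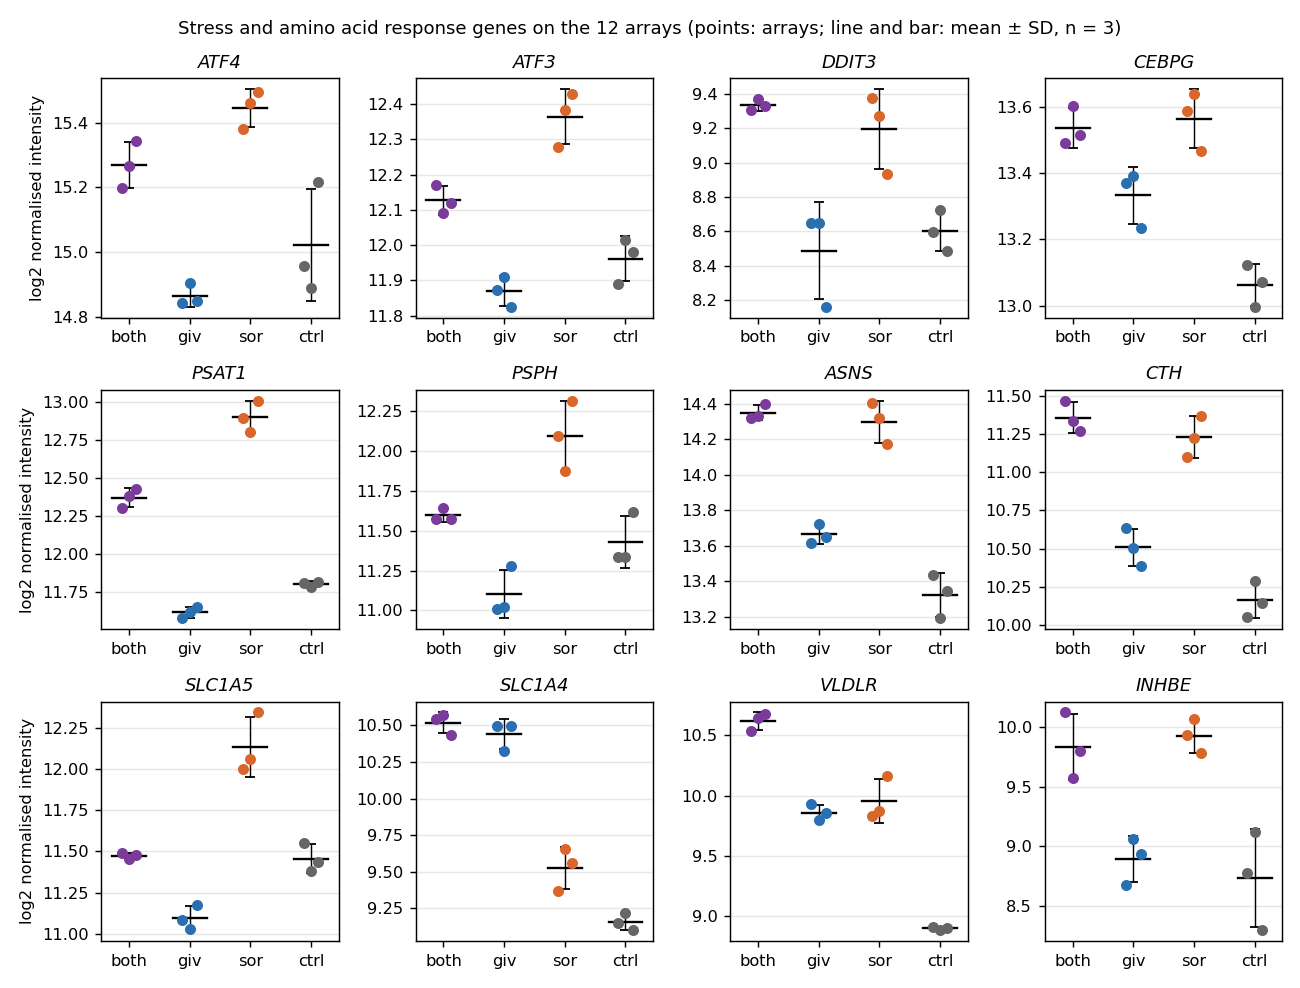
Log2 normalised intensity of 12 members on every array, for both drugs, givinostat (giv), sorafenib (sor) and control (ctrl); points are arrays, and the line and bar give the mean ± SD (n = 3). ASNS and CTH are high with sorafenib with or without givinostat, PSAT1 is highest with sorafenib alone, and SLC1A4 is high in both groups that had givinostat.

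Sorafenib against control asked what the kinase inhibitor did alone. Of the 33 tested members, 11 rose and 0 fell, shares of 33.3% and 0%, beside 2.99% and 1.59% of all genes (4.58% in either direction). The median log2 change of the members was 0.37, against -0.004 for all genes. PSAT1, CTH, VLDLR and INHBE rose at least 2-fold, as 0.266% of all genes changed, and ASNS 1.97-fold, while 0 of 6 signalling and feedback genes passed.

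Of 7 transcription factors tested, ATF4, ATF3, DDIT3 and CEBPG rose with sorafenib. ATF4 had log2 intensities of 15.38, 15.46 and 15.49 on sorafenib arrays A, B and C, against 14.96, 14.89 and 15.22 on the control arrays. The 3 sorafenib arrays lay above the 3 control arrays, by 0.42 ± 0.10 SE on the log2 scale (adjusted p = 0.0328). ATF4 has 3 probes here, and the other 2, fitted singly, stood at 0.26 (adjusted p = 0.207) and -0.215 (adjusted p = 0.758), so they did not pass. ATF3 had log2 intensities of 12.28, 12.38 and 12.43 on sorafenib arrays A, B and C, against 11.89, 12.01 and 11.98 on the control arrays. ATF3, an ATF family factor that acts after ATF4, rose by 0.40 ± 0.08 (adjusted p = 0.021) with no overlap between the groups. DDIT3 had log2 intensities of 9.38, 9.27 and 8.93 on sorafenib arrays A, B and C, against 8.60, 8.73 and 8.49 on the control arrays. DDIT3 encodes CHOP, a C/EBP factor linked to cell death under prolonged stress, and rose by 0.59 ± 0.15 (adjusted p = 0.0435), with sorafenib array C the lowest of its group but above each control array. CEBPG had log2 intensities of 13.59, 13.64 and 13.46 on sorafenib arrays A, B and C, against 13.12, 13.00 and 13.07 on the control arrays. CEBPG, a C/EBP partner of ATF4, rose by 0.50 ± 0.09 (adjusted p = 0.0105), again without overlap. ATF5 stood at 0.45 ± 0.13 (adjusted p = 0.0689), CEBPB at 0.05 ± 0.12 and JDP2 at -0.05 ± 0.28, and none of these passed.

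Each of these 4 calls was lost under some alternative. ATF3 was lost without sorafenib B or C and without control A or C (adjusted p up to 0.0701), ATF4 without sorafenib B or C and without control A or B (up to 0.103), and DDIT3 without any array but sorafenib C (up to 0.138). All 4 factors were lost under median scaling (ATF4 0.163, ATF3 0.321, DDIT3 0.142, CEBPG 0.22) and when only the compared groups were fitted (0.133, 0.113, 0.101 and 0.077 in the same order), ATF4 and DDIT3 with no detection filter (0.0691 and 0.0809), and ATF4 with the mean of its probes (0.546).

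PSAT1, the phosphoserine aminotransferase gene of serine synthesis, was 2.14-fold higher with sorafenib. PSAT1 had log2 intensities of 12.90, 12.80 and 13.01 on sorafenib arrays A, B and C, against 11.81, 11.78 and 11.82 on the control arrays. The sorafenib arrays lay about a log2 unit above the control arrays, and the change was 1.10 ± 0.08 (adjusted p = 0.000159). PSPH had log2 intensities of 12.09, 11.87 and 12.31 on sorafenib arrays A, B and C, against 11.34, 11.34 and 11.61 on the control arrays. PSPH, the phosphatase of the last step, rose by 0.67 ± 0.13 (adjusted p = 0.0168) with no overlap, although its second probe stood at 0.30 (adjusted p = 0.301). The call of PSPH was lost without control A or B (adjusted p up to 0.0559), under median scaling (0.0519) and when only the compared groups were fitted (0.0833). The mitochondrial one-carbon genes SHMT2 (0.19 ± 0.10), MTHFD2 (0.25 ± 0.09) and MTHFD1L (0.23 ± 0.08) did not pass (adjusted p from 0.122 to 0.289).

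ASNS had log2 intensities of 14.40, 14.32 and 14.17 on sorafenib arrays A, B and C, against 13.43, 13.19 and 13.34 on the control arrays. ASNS, the asparagine synthetase gene on chromosome 7 whose promoter core is shown above, was 1.97-fold higher (adjusted p = 0.00041), and its second probe rose by 0.66 (adjusted p = 0.0482). CTH had log2 intensities of 11.10, 11.23 and 11.37 on sorafenib arrays A, B and C, against 10.05, 10.29 and 10.14 on the control arrays. CTH, which encodes the cystathionine lyase that makes cysteine, rose by 1.07 ± 0.11 (adjusted p = 0.00041) with no overlap, and a second of its 3 probes rose by 1.12. The third CTH probe stood at 0.87 (adjusted p = 0.0524) and did not pass. The proline synthesis genes PYCR1 (0.45 ± 0.16) and ALDH18A1 (-0.38 ± 0.14) and the branched-chain aminotransferase gene BCAT1 (0.21 ± 0.11) did not pass.

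Of 8 transporters tested, SLC1A5 rose with sorafenib and the other 7 did not pass. SLC1A5 had log2 intensities of 12.001, 12.06 and 12.34 on sorafenib arrays A, B and C, against 11.55, 11.38 and 11.44 on the control arrays. SLC1A5 encodes the glutamine transporter ASCT2, and its change was 0.68 ± 0.10 (adjusted p = 0.00466), lost when only the compared groups were fitted (0.0598). SLC38A2 (0.47 ± 0.13) and SLC1A4 (0.37 ± 0.10) came closest of the others, with adjusted p of 0.0579 and 0.0528. The cystine antiporter gene SLC7A11 stood at 0.54 ± 0.20 (adjusted p = 0.138), and the arginine transporter gene SLC7A1 at 0.33 ± 0.11. The leucine transporter gene SLC7A5 stood at -0.04 ± 0.14 and its heavy chain gene SLC3A2 at 0.28 ± 0.10.

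VLDLR had log2 intensities of 9.83, 9.87 and 10.16 on sorafenib arrays A, B and C, against 8.91, 8.89 and 8.91 on the control arrays. VLDLR, a lipoprotein receptor gene, rose by 1.05 ± 0.10 (adjusted p = 0.00041), and its 3 control arrays lay close together. INHBE had log2 intensities of 9.93, 10.06 and 9.78 on sorafenib arrays A, B and C, against 8.78, 9.12 and 8.30 on the control arrays. INHBE, which encodes an inhibin beta subunit secreted by stressed cells, rose by 1.19 ± 0.20 (adjusted p = 0.00783), although its control arrays ranged widely. Among the feedback genes, the pseudokinase gene TRIB3 stood at -0.00192 ± 0.13, the eIF2 phosphatase subunit gene PPP1R15A at -0.14 ± 0.14 and DDIT4, an inhibitor of mTORC1, at -0.12 ± 0.09. CHAC1, a glutathione-degrading enzyme gene with a promoter core, stood at 0.52 ± 0.21 (adjusted p = 0.174), EIF4EBP1 at 0.29 ± 0.25 and the transfer RNA exporter gene XPOT at 0.08 ± 0.17.

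The count of 11 members became 7 without control A, 6 under median scaling and 5 when only the compared groups were fitted, and in each the members that passed were higher. Under median scaling the median of all genes shifted to -0.17 and 79 genes rose and 366 fell, against 315 and 167 in the main setting, while the members' median stood 0.37 above that of all genes in both settings.

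Givinostat against control asked what the deacetylase inhibitor did alone. Of the 33 members, 5 rose (15.2%) and 9 fell (27.3%), beside 17.6% and 15.7% of all genes (33.3% in either direction), and the median change was -0.16, against -0.02 for all genes. The share that rose was near that of all genes. Enzymes of mitochondrial one-carbon metabolism and the transporters SLC7A5, SLC3A2 and SLC1A5 fell, and SLC1A4 rose 2.43-fold and VLDLR 1.94-fold. Changes of at least 2-fold were called for 4.33% of all genes.

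SLC1A4 had log2 intensities of 10.50, 10.32 and 10.50 on givinostat arrays A, B and C, against 9.15, 9.22 and 9.11 on the control arrays. SLC1A4, which encodes the neutral amino acid transporter ASCT1, rose by 1.28 ± 0.10 (adjusted p = 2.49e-06). VLDLR had log2 intensities of 9.93, 9.79 and 9.86 on givinostat arrays A, B and C. These lay above the control arrays given earlier, and VLDLR rose by 0.96 ± 0.10 (adjusted p = 2.4e-05). ASNS, at 13.62, 13.72 and 13.65 in givinostat arrays, rose by 0.34 ± 0.09 (adjusted p = 0.0145), a smaller estimate than the 0.98 ± 0.09 with sorafenib, and its second probe stood at 0.23 (adjusted p = 0.305). CTH, at 10.63, 10.51 and 10.39 in givinostat arrays, rose by 0.35 ± 0.11 (adjusted p = 0.0253). CEBPG, at 13.37, 13.39 and 13.23, rose by 0.27 ± 0.09 (adjusted p = 0.0316), and its givinostat arrays also lay above the control arrays.

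The calls of ASNS, CTH and CEBPG were lost under median scaling (adjusted p = 0.338, 0.231 and 0.624). They were lost for ASNS without control B or givinostat B (up to 0.0609) and with the mean of its probes (0.0732), and for CTH without control A or C or givinostat A or B (up to 0.101), with no detection filter (0.0522) and with the mean of its probes (0.0552). For CEBPG they were lost without control B or C or givinostat A or B (up to 0.1), with no detection filter (0.0713) and when only the compared groups were fitted (0.0564).

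The 3 mitochondrial one-carbon genes fell with givinostat. SHMT2, the serine hydroxymethyltransferase gene, had 13.30, 13.33 and 13.48 in givinostat arrays against 13.70, 13.62 and 13.94 in control arrays and fell by 0.38 ± 0.10 (adjusted p = 0.0107). MTHFD2 fell by 0.34 ± 0.09 (adjusted p = 0.0135). MTHFD1L, with a promoter core, fell by 0.41 ± 0.08 (adjusted p = 0.00219), and its 3 control arrays lay between 12.68 and 12.70. The serine synthesis genes PSAT1 (11.57, 11.62 and 11.65 in givinostat arrays, -0.19 ± 0.08, adjusted p = 0.101) and PSPH (11.01, 11.02 and 11.28, -0.33 ± 0.13, adjusted p = 0.0666) did not pass, although the second PSPH probe fell by 0.53 (adjusted p = 0.0186). PYCR1 fell by 0.59 ± 0.16 (adjusted p = 0.0134), lost without control B or givinostat C (up to 0.0577).

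SLC7A5 had 12.54, 12.66 and 12.71 in givinostat arrays against 13.44, 13.25 and 13.36 in control arrays, without overlap, and fell by 0.71 ± 0.14 (adjusted p = 0.0018). Its partner SLC3A2 fell by 0.44 ± 0.10 (adjusted p = 0.00608), and its second probe fell by 0.89. SLC1A5, at 11.09, 11.03 and 11.17 in givinostat arrays, fell by 0.36 ± 0.10 (adjusted p = 0.0162), lost without control A or givinostat B (up to 0.0642). Of the 9 members that fell with givinostat, SLC1A5 was the 1 that rose with sorafenib. The sorafenib change was positive in 8 of the 9, beside 27 of all 33 tested members. The share of all genes that fell with givinostat and rose with sorafenib was not counted. XPOT fell by 0.53 ± 0.17 (adjusted p = 0.0326), a call lost without control A or C or givinostat A or B (up to 0.111) and with no detection filter (0.0576).

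Among the factors ATF5, an ATF4 relative, fell by 0.56 ± 0.13 (adjusted p = 0.00521). ATF4, at 14.84, 14.91 and 14.85 in givinostat arrays, stood at -0.16 ± 0.10 (adjusted p = 0.237), ATF3 at -0.09 ± 0.08 and DDIT3, at 8.65, 8.65 and 8.16, at -0.12 ± 0.15. A second ATF4 probe, fitted singly, fell by 0.48 (adjusted p = 0.0055), so the probes of this gene disagree on a call. INHBE stood at 0.16 ± 0.20 and CHAC1 at 0.33 ± 0.21, and neither passed. PPP1R15A stood at 0.37 ± 0.14 (adjusted p = 0.0666). The 14 calls became 9 without givinostat array B, 2 higher and 7 lower. Median scaling gave 2 higher and 12 lower, with the median of all genes at -0.12 and 1106 genes higher and 1996 lower, against 1856 and 1653 in the main setting.

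**Figure D3:**
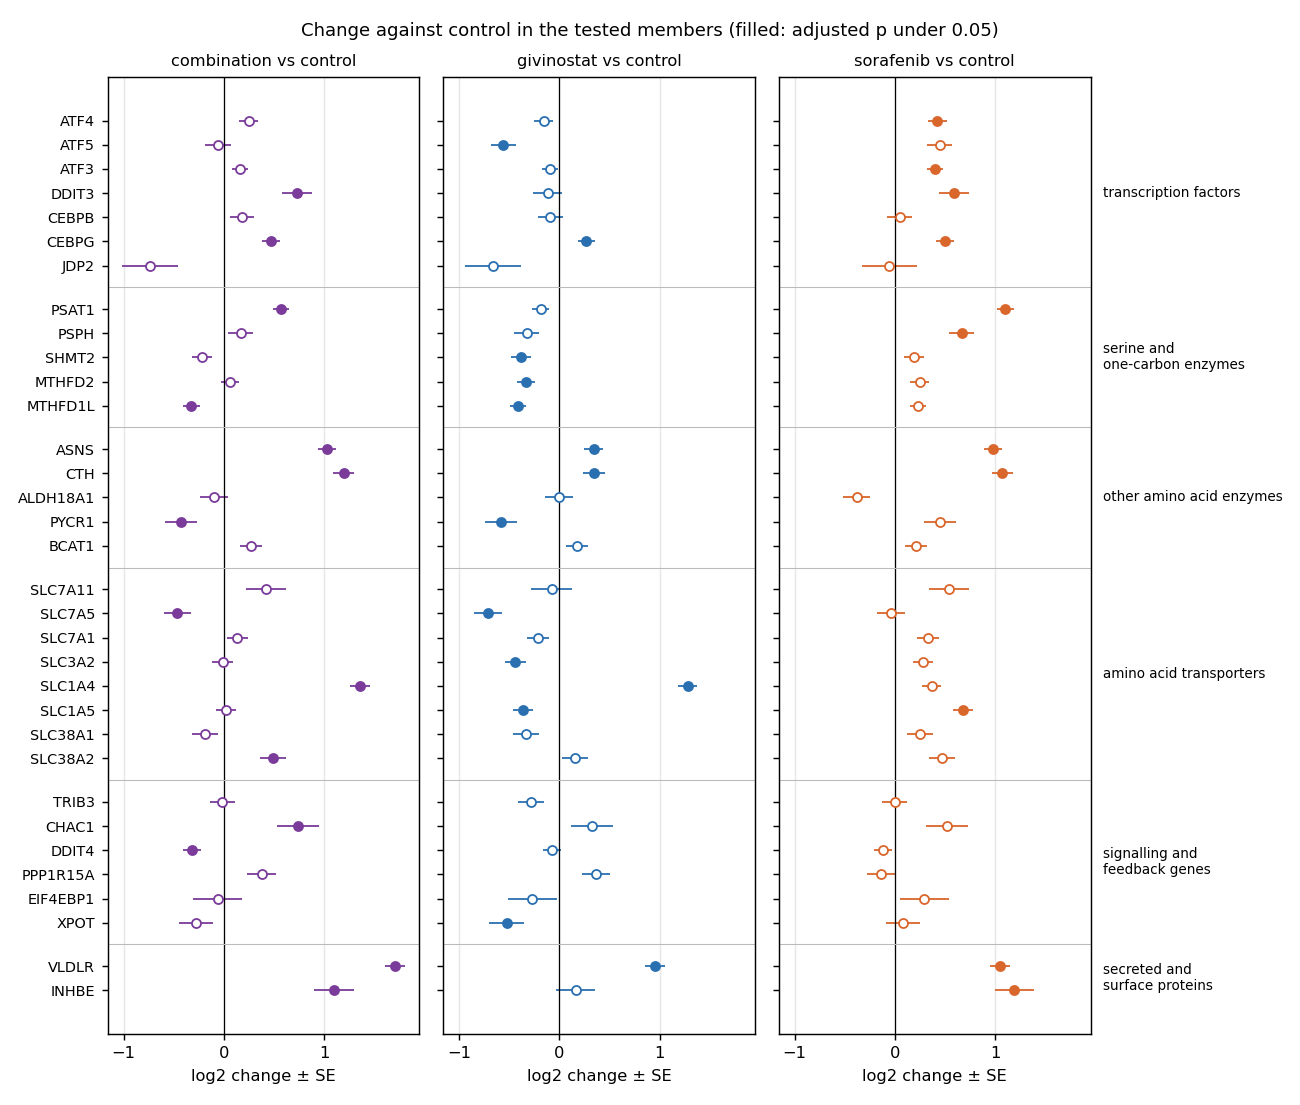
Log2 change against control, with SE, of the 33 tested members grouped by role, for the combination, givinostat and sorafenib (filled points: adjusted p under 0.05). With sorafenib the 11 filled points lie right of 0, with givinostat 5 lie right and 9 left, and with the combination 10 lie right and 4 left.

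The effect of giving both drugs at once was read from the combination against control. Of the 33 members, 10 rose (30.3%) and 4 fell (12.1%), beside 20.9% and 20.5% of all genes (41.4% in either direction), with a median change of 0.17 against -0.02 for all genes. VLDLR, SLC1A4, CTH, INHBE and ASNS rose at least 2-fold, as 6.04% of all genes changed. Members that had fallen with givinostat alone were mostly not past the threshold here, and SLC7A5, MTHFD1L and PYCR1 were.

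VLDLR had 10.53, 10.64 and 10.67 in combination arrays, above every array of the other groups, and rose by 1.71 ± 0.10 (adjusted p = 2.05e-07), which is 3.28-fold. SLC1A4 had 10.54, 10.57 and 10.44 and rose by 1.36 ± 0.10 (adjusted p = 1.33e-06). CTH had log2 intensities of 11.47, 11.33 and 11.27 on combination arrays A, B and C. CTH rose by 1.20 ± 0.11 (adjusted p = 6.19e-06). INHBE had 10.12, 9.57 and 9.80 and rose by 1.10 ± 0.20 (adjusted p = 0.000854), and ASNS, at 14.32, 14.33 and 14.40, rose by 1.03 ± 0.09 (adjusted p = 7.05e-06). The combination arrays of both lay above all givinostat and control arrays and overlapped the sorafenib arrays.

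PSAT1, at 12.30, 12.38 and 12.43 in combination arrays, rose by 0.57 ± 0.08 (adjusted p = 0.000209) and lay between the sorafenib and the control arrays. PSPH, at 11.57, 11.64 and 11.57, stood at 0.17 ± 0.13 (adjusted p = 0.314) and overlapped the control arrays. SLC1A5, at 11.49, 11.46 and 11.48, stood at 0.02 ± 0.10 (adjusted p = 0.902) and lay within the range of the control arrays. MTHFD1L fell by 0.32 ± 0.08 (adjusted p = 0.00721), and SHMT2 (-0.21 ± 0.10) and MTHFD2 (0.06 ± 0.09) did not pass. For SLC3A2 and BCAT1 the probes differed: SLC3A2 stood at -0.01 ± 0.10 while its second probe fell by 0.58 (adjusted p = 0.012), and BCAT1 stood at 0.27 ± 0.11 while its second probe rose by 0.77 (adjusted p = 0.0311).

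Among the factors, DDIT3, at 9.30, 9.37 and 9.33, rose by 0.73 ± 0.15 (adjusted p = 0.0019), and CEBPG, at 13.49, 13.60 and 13.51, rose by 0.47 ± 0.09 (adjusted p = 0.00105). ATF4, at 15.20, 15.27 and 15.34, stood at 0.25 ± 0.10 (adjusted p = 0.0591), and a second ATF4 probe rose by 0.33 (adjusted p = 0.0304). The third ATF4 probe stood in the other direction, at -0.59 (adjusted p = 0.168), and did not pass. ATF3, at 12.17, 12.09 and 12.12, stood at 0.17 ± 0.08 (adjusted p = 0.122). CHAC1 rose by 0.74 ± 0.21 (adjusted p = 0.0137) and the transporter gene SLC38A2 by 0.49 ± 0.13 (adjusted p = 0.00874). DDIT4 fell by 0.32 ± 0.09 (adjusted p = 0.014), SLC7A5 by 0.46 ± 0.14 (adjusted p = 0.017) and PYCR1 by 0.42 ± 0.16 (adjusted p = 0.0495). PPP1R15A stood at 0.38 ± 0.14, with an adjusted p of 0.0504, just past the other side of the threshold.

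Calls lost with 1 array left out were CHAC1 without control B or combination B (adjusted p up to 0.0564), DDIT4 without control C (0.0529), SLC7A5 without control A (0.0594) and PYCR1 without control A or B or combination A or C (up to 0.195). PYCR1 was also lost with no detection filter (0.0869) and with only the compared groups (0.0916), and PYCR1, CEBPG and SLC38A2 under median scaling (0.0897, 0.146 and 0.0869), where 8 members rose and 6 fell and 1503 genes rose and 2287 fell, against 2201 and 2155 in the main setting.

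The combination against givinostat asked what sorafenib added. Of the 33 members, 6 rose (18.2%) and 0 fell, beside 0.845% and 0.494% of all genes (1.34% in either direction), with a median of 0.27 against -0.01 for all genes. They were INHBE (0.94 ± 0.20, adjusted p = 0.0377), CTH (0.85 ± 0.11, 0.00376), DDIT3 (0.85 ± 0.15, 0.0179), PSAT1 (0.76 ± 0.08, 0.00139), VLDLR (0.76 ± 0.10, 0.00424) and ASNS (0.69 ± 0.09, 0.00527). Each of the 6 had also risen with sorafenib against control, and the share of all genes that did so was not counted. The second ATF4 probe rose by 0.81 (adjusted p = 0.006), while the brightest one stood at 0.40 ± 0.10 (adjusted p = 0.0688). The third ATF4 probe stood at -0.18 (adjusted p = 0.832). The second CTH probe rose by 0.68 (adjusted p = 0.00829), and the third stood at 0.62 (adjusted p = 0.185) and did not pass. DDIT3 was lost without givinostat C or any combination array (adjusted p up to 0.0746). INHBE was lost without any 1 of the 6 arrays (up to 0.136), under median scaling (0.0502), with no detection filter (0.0705), with the array letter as a replicate block (0.0511) and when only the compared groups were fitted (0.05).

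The combination against sorafenib asked what givinostat added. Of the 33 members, 3 rose (9.09%) and 11 fell (33.3%), beside 17.8% and 17.5% of all genes (35.3% in either direction), with a median of -0.18 against -0.01 for all genes. SLC1A4 rose by 0.99 ± 0.10 (adjusted p = 1.78e-05), VLDLR by 0.66 ± 0.10 (0.000344) and PPP1R15A by 0.52 ± 0.14 (0.0143). PYCR1 fell by 0.87 ± 0.16 (adjusted p = 0.00132), SLC1A5 by 0.66 ± 0.10 (0.000407), MTHFD1L by 0.55 ± 0.08 (3e-04) and PSAT1 by 0.53 ± 0.08 (0.000467). ATF5 fell by 0.50 ± 0.13, PSPH by 0.50 ± 0.13, SLC38A1 by 0.44 ± 0.13, SLC7A5 by 0.42 ± 0.14, SHMT2 by 0.41 ± 0.10, SLC3A2 by 0.29 ± 0.10 and ATF3 by 0.24 ± 0.08 (adjusted p from 0.00782 to 0.0439). ASNS (0.05 ± 0.09), CTH (0.13 ± 0.11) and INHBE (-0.09 ± 0.20) did not pass, but the second ASNS probe rose by 0.485 (adjusted p = 0.0382). The second SLC3A2 probe fell by 0.97 (adjusted p = 0.000709), a larger estimate than that of the brightest probe. In the same fit of single probes the brightest SLC3A2 probe stood at -0.29 (adjusted p = 0.0514). BCAT1 stood at 0.06 ± 0.11, while its second probe rose by 1.036 (adjusted p = 0.00877). Of the 5 serine and one-carbon genes tested, 4 fell here and MTHFD2 did not pass (-0.18 ± 0.09, adjusted p = 0.144). The second PSPH probe stood at -0.28 (adjusted p = 0.184) and the second SLC38A1 probe at -0.20 (adjusted p = 0.523), and neither passed.

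Among these falls, the ATF3 call was lost without sorafenib B or C and without combination A, B or C (adjusted p up to 0.105), SLC7A5 without any but sorafenib C (up to 0.114), SLC3A2 without any but sorafenib C (up to 0.161) and SLC38A1 without sorafenib B or C or combination A or B (up to 0.0841). PPP1R15A was lost without combination C (0.064), and median scaling ended the calls of ATF3 (0.273), ATF5 (0.0519), SLC3A2 (0.217) and SLC7A5 (0.13). With no detection filter ATF3 (0.0869), SLC3A2 (0.0867) and SLC7A5 (0.0556) were lost, and with only the compared groups ATF3 (0.0987), SLC3A2 (0.0768), SLC7A5 (0.0815) and PPP1R15A (0.0505). The mean of its probes ended the call of SLC38A1 (0.127), and the array letter as a replicate block that of SLC3A2 (0.0623). Under that scaling 3 members rose and 7 fell, and 1951 genes rose and 911 fell, against 1873 and 1847 in the main setting. For the combination against givinostat it gave 72 genes higher and 16 lower, against 89 and 52.

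**Figure D4:**
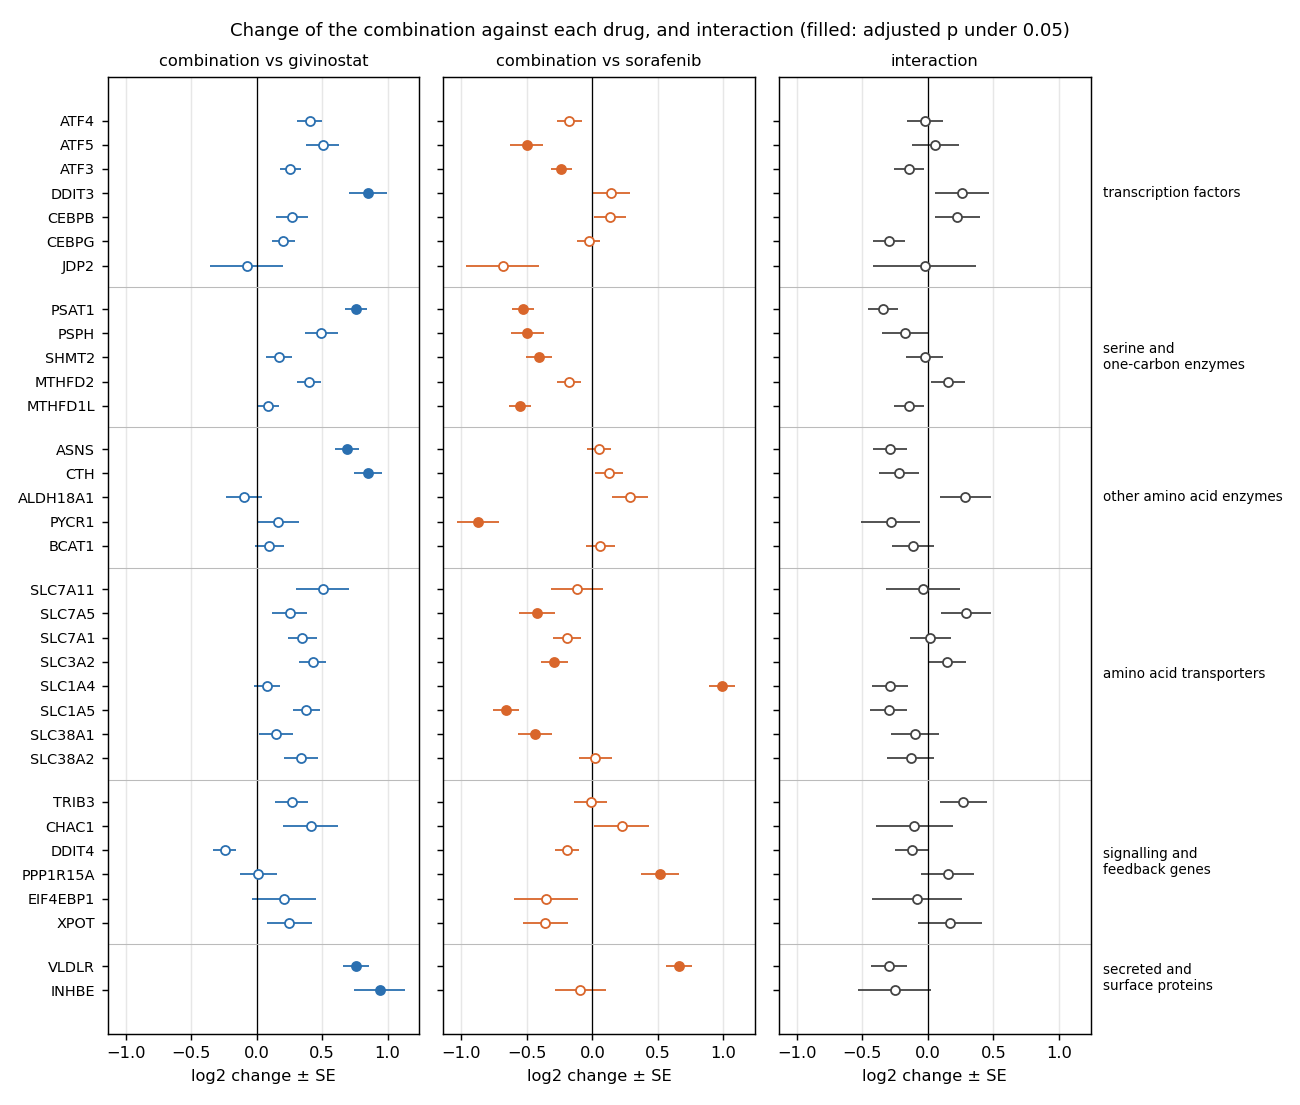
Log2 change with SE of the 33 tested members for the combination against givinostat, the combination against sorafenib, and the interaction of the drugs (filled points: adjusted p under 0.05). The first panel has 6 filled points, all right of 0, the second has 3 right and 11 left, and the interaction panel has none.

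The interaction is the log2 change with both drugs minus the 2 single-drug log2 changes added up. It passed for 0 of the 33 members (limma, smallest adjusted p = 0.331), beside 0.019% of all genes. At an unadjusted p under 0.05 there were 3 members, ASNS (-0.29 ± 0.13), PSAT1 (-0.34 ± 0.12) and CEBPG (-0.30 ± 0.12), 3 of 33 beside 10.9% of all genes, so the members' share was near that of all genes. The second ASNS probe had an interaction of 0.25 (adjusted p = 0.728), in the other direction. For VLDLR the interaction was -0.30 ± 0.14 (adjusted p = 0.465), and for DDIT3 0.26 ± 0.21. The SE of these values ran from 0.11 to 0.39 over the members. With 3 arrays a group, estimates well above their SE also failed: PSAT1, at -0.34 ± 0.12, had an adjusted p of 0.331. A p that misses the threshold does not show that the changes add up.

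Other genes of the pathway were read from further lists. A list of eIF2 kinases, eIF2, eIF2B and related genes had 16 tested genes, GCN1, PPP1R15B, DELE1, OMA1 and NCK1 being the related ones. With sorafenib 0 of the 16 rose and 0 fell (limma), beside 2.99% and 1.59% of all genes. At an unadjusted p under 0.05 there were 3 of the 16, and the share of all genes at that threshold was not counted. With the combination EIF2AK3, the kinase PERK that senses misfolded protein, rose by 0.69 ± 0.11 (adjusted p = 4.23e-04) and 5 genes fell, among them GCN1, a co-activator of the kinase GCN2 (-0.39 ± 0.09). These are 6.25% and 31.2% of the list, beside 20.9% and 20.5% of all genes. Of 19 other reported ATF4 target genes, 1 rose and 1 fell with sorafenib, 5.26% each beside 2.99% and 1.59% of all genes. PCK2, the mitochondrial phosphoenolpyruvate carboxykinase gene, rose by 0.57 ± 0.09, a call lost under median scaling (adjusted p = 0.132) and with only the compared groups (0.0668). HMOX1, the haem oxygenase gene, fell by 0.46 ± 0.11, a call lost without any 1 of the 6 arrays (adjusted p up to 0.123), with the array letter as a replicate block (0.058), with no detection filter (0.0829) and with only the compared groups (0.0968). With givinostat 7 rose (36.8%) and 1 fell (5.26%), beside 17.6% and 15.7% of all genes, the rises including the ATG8-family gene MAP1LC3B (0.68 ± 0.10) and the thioredoxin inhibitor gene TXNIP (1.13 ± 0.16).

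Of 18 cytosolic aminoacyl-tRNA synthetase genes, which charge transfer RNAs, 1 rose and 1 fell with sorafenib, 5.56% each beside 2.99% and 1.59% of all genes. GARS1 rose by 0.42 ± 0.10, a call lost without any array but sorafenib A (adjusted p up to 0.107), under median scaling (0.267), with no detection filter (0.0751) and with only the compared groups (0.117). VARS1 fell by 0.58 ± 0.10, lost with only the compared groups (0.0598). With givinostat 0 rose and 6 fell, 33.3% beside 15.7% of all genes, including KARS1 (-0.50 ± 0.10). With the combination SARS1 (0.56 ± 0.10) and AARS1 (0.53 ± 0.10) rose and 4 fell, KARS1 (-0.77 ± 0.10) among them, 11.1% and 22.2% beside 20.9% and 20.5% of all genes. The call of AARS1 was lost under median scaling (adjusted p = 0.103).

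Of 18 other amino acid enzyme genes, 1 rose (5.56%) and 0 fell with sorafenib, beside 2.99% and 1.59% of all genes. It was the argininosuccinate synthase gene ASS1 (1.54 ± 0.25), not called with only the compared groups (adjusted p = 0.0668). With givinostat 3 rose (16.7%) and 7 fell (38.9%), beside 17.6% and 15.7% of all genes. The glutamine synthetase gene GLUL was among the falls (-1.21 ± 0.26). Of 14 other one-carbon and glycine genes, 0 rose and 7 fell with givinostat, a share of 50% beside 15.7%, including the thymidylate synthase gene TYMS (-0.65 ± 0.12) and the glycine decarboxylase gene GLDC (-0.55 ± 0.12). GLDC rose in the combination against givinostat (0.92 ± 0.12), the 1 gene of that list to do so, 7.14% beside 0.845% of all genes. With sorafenib against control GLDC rose by 0.46 and 0 genes of that list fell, 7.14% higher beside 2.99% of all genes. That call of GLDC was lost without any array but control B (adjusted p up to 0.157) and under median scaling (0.207). It was also lost with no detection filter (0.0908) and with only the compared groups (0.141). Of 12 other amino acid transporter genes, 3 rose (25%) and 4 fell (33.3%) with givinostat, beside 17.6% and 15.7% of all genes. Among them were SLC1A1 (0.71 ± 0.12) and SLC7A6 (-0.53 ± 0.12). With sorafenib SLC1A1 rose (0.47 ± 0.12) and 0 fell, 8.33% and 0% beside 2.99% and 1.59% of all genes. That last call was lost without sorafenib B or C and without control A or C (adjusted p up to 0.131), with the array letter as a replicate block (0.052), with no detection filter (0.0862), under median scaling (0.144) and with only the compared groups (0.153).

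**Figure D5:**
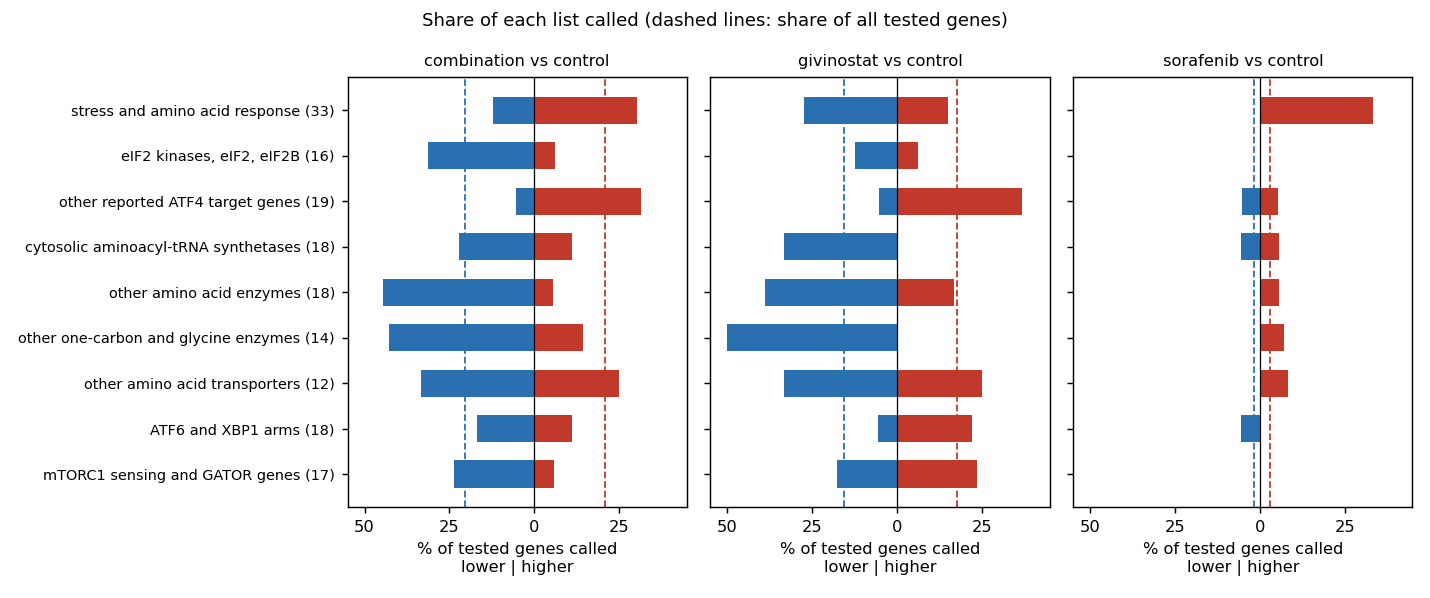
Percent of tested genes called higher (red, right) or lower (blue, left) against control in the stress and amino acid response members and 8 further lists, with the number tested in brackets; dashed lines give the share of all 10529 genes. With sorafenib the members stand at 33.3% higher, and the share of the other lists called higher runs up to 8.33%.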

How the data were processed

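Biotin-labelled RNA was read with BeadStudio per the submitters' processing notes, which give no version. The deposited file holds, per the file headers, a raw intensity for each of 48803 probes on each array, from 69.7 to 72773. Beside it the deposited file has a fraction named a detection p-value. Its values climb with brightness (Spearman correlation at least 0.992 on each array), and 1 minus the detection p is the reading used. A second table of the authors holds intensity after quantile normalization, judged from its values.

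Raw intensities were background-corrected with limma 3.58.1 (normal-exponential method, offset 16), then quantile normalized and log2 transformed (R 4.3.3). A probe entered with a detection fraction over 0.95 on all 3 arrays of at least 1 group (16927 probes, 14039 with 1 symbol). The platform's table gave 1 symbol to 28098 probes, several to 13 and none to 20692. The brightest probe by mean stood for a gene, with symbols updated through RefSeq, which left 10529 genes. Each group mean was fitted over 12 arrays (8 residual and 4.04 prior degrees of freedom), with two-sided moderated tests and Benjamini-Hochberg adjustment. The fit was tested on simulated data.

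Alternatives were another background correction, scaling, filter or probe rule, the authors' values, only the compared groups, a letter block, array weights and each array left out. The labels do not say whether the letters pair the arrays. Deviations from group means correlated from -0.059 to 0.255 within a letter. For 6 of the 12 arrays, the best-correlated array of another group had the same letter. The 43 genes and the further lists were chosen with earlier results of these data known. Members that changed in any comparison were named, with every array's value for those that changed with sorafenib or by at least 1 on the log2 scale, and up to 4 genes with the smallest p per further list and comparison. Precision is limited by the number of arrays.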

Additional observations from a re-analysis of the deposited data

How the results depend on the processing

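Of 59 changes of members called in the 6 comparisons, 33 kept their call under each of the 16 alternatives run on them, and 0 of 944 re-estimates turned in sign. The 116 lost calls included 16 under median scaling, 13 with only the compared groups, 10 with no detection filter, 4 with the mean of probes and 2 with the array letter as a replicate block. No other call of a member was lost under the block. The cause of the losses was not tested, and the left-out and compared-groups fits also had fewer arrays. With sorafenib against control, 11 members became 6 under median scaling and 5 with only the compared groups, and 482 genes became 214 with no detection filter and 75 with only the compared groups. The block gave 420 genes and 11 members there. Leaving out 1 array gave 7 to 11 members and 164 to 401 genes with sorafenib, and 9 to 14 members with givinostat. For the combination against givinostat, 6 members became 12 without background correction, 12 with the authors' processed values and 13 with array weights. The 141 genes became 306 without background correction, 306 with the authors' values, 358 with array weights, 88 under median scaling, 68 with no detection filter and 83 with only the compared groups, and 32 to 78 with 1 array left out. For the interaction, 2 genes became 8 without background correction, 8 with the authors' values, 1 under median scaling, 1 with no detection filter, 1 on genes detected on all 12 arrays, 1 with the mean of probes, 0 with the block, and 0 to 2 with 1 array left out. Members passing the interaction stayed at 0 in each of these. Median scaling moved the median of all genes to 0.19 in the interaction, where the members' median turned to 0.08 and stood 0.11 below that of all genes, against 0.09 below in the main setting. An interaction with only the compared groups is the main fit itself.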

Other observations

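The arms of the unfolded protein response that do not run through eIF2 were read beside the members. Of 18 genes of the ATF6 and XBP1 arms, 0 rose and 1 fell (5.56%) with sorafenib, beside 2.99% and 1.59% of all genes. With givinostat 4 rose and 1 fell, 22.2% beside 17.6% of all genes and 5.56% beside 15.7%. The fall with sorafenib was that of HSPA5, the chaperone gene BiP (-0.40 ± 0.10). It was lost without any 1 of the 6 arrays (adjusted p up to 0.128), with the array letter as a replicate block (0.052), with array weights (0.061), with no detection filter (0.0816) and with only the compared groups (0.13). CRELD2, which encodes an endoplasmic reticulum protein, rose by 0.93 ± 0.13 with givinostat and by 0.67 ± 0.13 with the combination. HSPA5 also fell by 0.40 ± 0.10 with the combination.

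Of 17 genes of mTORC1 and its amino acid sensors, 0 rose and 0 fell with sorafenib (limma), beside 2.99% and 1.59% of all genes. At an unadjusted p under 0.05 there were 2 of the 17, and the share of all genes at that threshold was not counted. With givinostat 4 rose (23.5%) and 3 fell (17.6%), beside 17.6% and 15.7% of all genes. SESN3, a sestrin gene related to the untested member SESN2, rose by 1.28 ± 0.16 with givinostat and 1.38 ± 0.16 with the combination. AKT1S1, which encodes an mTORC1 inhibitor, fell by 0.72 ± 0.12 with givinostat and 0.91 ± 0.12 with the combination.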
